A study of Mus musculus with 9 samples.

Results

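The genes described here encode the receptor subunits through which GABA and glutamate act on cells, 41 of the 22180 genes measured with a symbol of their own. Members were chosen by a rule on gene symbols, with earlier results of these data known. They covered 18 GABA receptor genes (13 GABA-A, 3 GABA-A rho and 2 GABA-B) and 23 glutamate receptor genes (4 AMPA, 5 kainate, 6 NMDA, 1 delta and 7 metabotropic). Cortices were dissected from CD1 mouse embryos of wild-type genotype, aged embryonic days 12 to 13. RNA was taken as total input, as RNA precipitated with normal rabbit IgG, or as RNA precipitated with a rabbit antibody to Pum2 (Pumilio2), with 3 biological replicates of each and 9 arrays in all. How many embryos went into a replicate, and which were of the earlier or later day, was not stated in the labels. Pum2 is an RNA-binding protein of the Pumilio family that represses translation of its target messages, and the question was which messages it holds. Each value is a log2 signal of a Mouse Gene 2.0 ST array, so a difference of 1 is a doubling. Precision is limited by the number of arrays.

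GABA-A receptors are ligand-gated chloride channels assembled from alpha, beta and other subunits, GABA-B receptors are obligate pairs of G protein-coupled subunits, and ionotropic glutamate receptors of the AMPA, kainate, NMDA and delta types form cation channels or synaptic organisers. Metabotropic glutamate receptors signal through G proteins. In the embryonic cortex GABA commonly depolarises cells, and both transmitters reach precursors and migrating neurons before most synapses exist.

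The tissue carried its own markers: 7 cortical genes measured (Emx1, Emx2, Lhx2, Pax6, Eomes, Tbr1 and Neurod6) were all at or above the median gene. Their mean log2 signal was 9.63 to 9.68 in input, 9.71 to 9.78 in IgG and 9.80 to 9.95 with Pum2. With Pum2, Emx1 and Tbr1 were called above both controls, Emx2 and Eomes above input only, and Neurod6 below both. Marker means of other cells also differed between groups. The mean log2 signal of 6 meningeal markers was 7.35 to 7.42 in input, 7.57 to 7.87 in IgG and 8.01 to 8.11 with Pum2, and that of 5 endothelial markers was 7.97 to 8.04, 7.97 to 8.33 and 8.56 to 8.66. Markers of the ganglionic eminence, the ventral source of cortical interneurons, had a mean of 5.63 to 5.76 in input, 5.67 to 5.82 in IgG and 5.89 to 6.09 with Pum2 (8 measured). Of these Dlx2, Dlx5 and Lhx6 were at or above the median gene, and Gad1, Dlx6 and Nkx2-1 were dim by the guide below. Dlx5 was 1.14 above IgG with Pum2 (adjusted p = 0.00259) and 1.25 above input. Dlx2 was called above input only (0.40), and Gad2 was called below IgG with Pum2 (-0.41). Dlx6, Lhx6, Gsx2, Nkx2-1 and Gad1 were not called in any comparison. Radial precursor markers (7 measured) had a mean of 9.34 to 9.42 in input, 9.24 to 9.38 in IgG and 9.66 to 9.76 with Pum2. Higher than both controls were 4 of them (57.1%), Sox2, Nes, Hes1 and Vim. The same rule was met by 14.2% of all genes and 25.9% of those at or above the median gene. Slc1a3 was called above input only (0.64). Hes5 (-0.34) and Fabp7 (-0.37) were called below input with Pum2, and neither was called against IgG. Microglial markers (6 measured) had 6.24 to 6.38, 6.14 to 6.30 and 6.41 to 6.46. Cajal-Retzius markers (5 measured) stood at 6.43 to 6.57 in input, 6.60 to 6.69 in IgG and 7.13 to 7.16 with Pum2. Neuronal markers (9 measured) had means of 9.41 to 9.57, 9.58 to 9.66 and 9.65 to 9.73, but single genes went both ways. With Pum2, 0 were called above IgG and 2 below it (0% and 22.2%), Elavl3 (-0.33) and Map2 (-0.21). Against input 5 were higher and 2 lower (55.6% and 22.2%), the lower being Stmn2 (-0.47) and Stmn3 (-0.26). Of all genes at or above the median gene, 34.1% and 18% were called against IgG, and 37% and 21.9% against input. The part of these cells in the differences below was not tested. Only the input is RNA of the whole tissue, and there fewer cells of a type cannot be told apart from less RNA per cell. The IgG and Pum2 arrays measure precipitated RNA, so their marker values do not count cells.

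Receptor genes spanned a wide range of signal. The median gene of the array had a 9-array mean of 6.08, and 15 of the 41 members lay at or above it. As a rough guide to features with little transcript, 1394 genes of olfactory and vomeronasal receptors had a median of 3.21 and a 95th percentile of 5.32, and 15 members lay under that percentile and are called dim. Probes differ in affinity, so the order of genes by signal is only approximate. Gabbr1 gave the highest mean signal of any member (10.24 in input), followed by Grik2 (9.06), Grik5 (8.84), Gria2 (8.26), Grm2 (7.72), Gabra3 (7.63), Gria4 (6.95) and Gabra2 (6.87). The dim members were Gabra6, Gabrb1, Gabrd, Gabrg1, Gabrg3, Gabrp and Gabrq, the rho genes Gabrr1, Gabrr2 and Gabrr3, the NMDA genes Grin2c and Grin3a, and the metabotropic genes Grm5, Grm7 and Grm8. No metabotropic gene other than Grm2 reached the median gene, and no NMDA gene measured here did. Gabra6, a subunit known from cerebellar granule cells, read the same value of 3.32 on all input and Pum2 arrays.

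**Figure D1:**
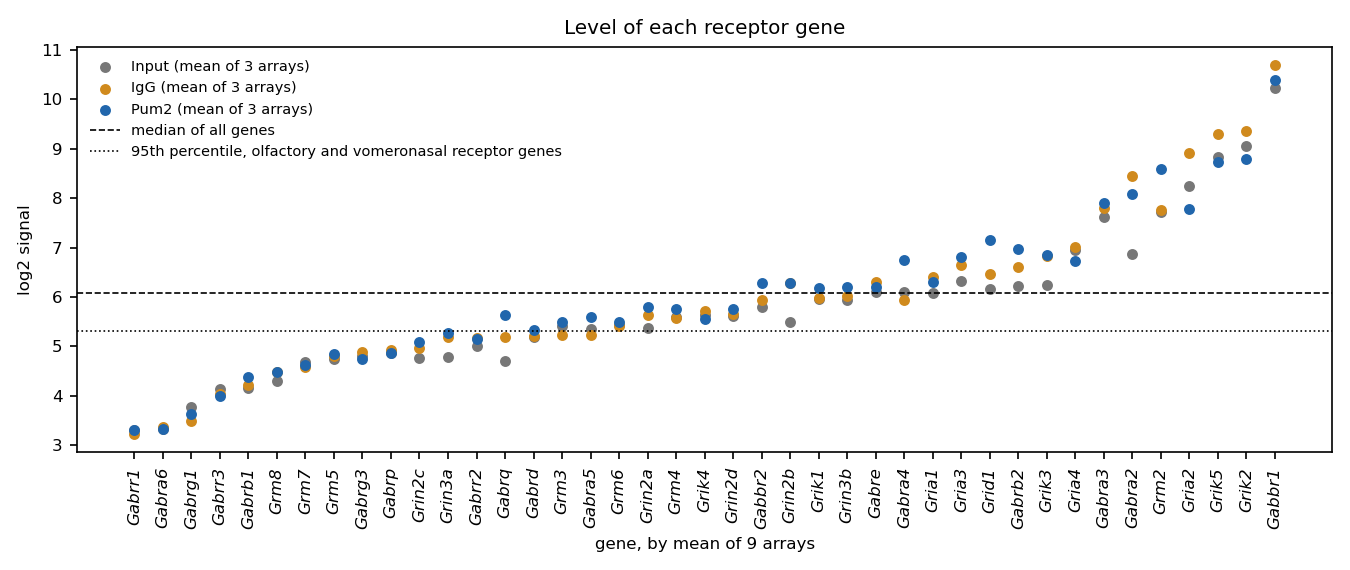
Mean log2 signal of each of the 41 receptor genes in the input, IgG and Pum2 arrays (3 arrays per point), ordered by the mean of all 9 arrays. The dashed line is the median gene (6.08) and the dotted line the 95th percentile of olfactory and vomeronasal receptor genes (5.32); 15 members lie under the dotted line, and Gabbr1 is the highest.

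Against IgG, the background of the precipitation, the receptor genes split. The Pum2 precipitate held more Grm2, Gabra4, Grid1, Gabrq, Gabrb2 and Gabbr2 RNA and less Gria2, Grik2, Grik5, Gabra2 and Gabbr1 RNA. That is 6 of 41 members higher (14.6%) and 5 lower (12.2%), by limma's moderated test at an adjusted p under 0.05. Over all 22180 genes 19.4% were higher and 11.4% lower, so the members' shares were near those of the array as a whole. Calls were more frequent among brighter genes: of the 15 members at or above the median gene 4 were higher (26.7%) and 5 lower (33.3%), against 34.1% and 18% of all such genes. The median log2 difference was 0.09 for the members and 0.04 for all genes. With each array centred on its brighter genes the members split 3 higher and 7 lower, and all genes 12.6% and 18.4%. That centring took the median difference of all genes from 0.04 to -0.08, and the share of all calls that were higher from 63% to 40.7%.

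Against input, 13 members were higher (31.7%) and 2 lower (4.88%), where 21.6% and 13.1% of all genes were. The higher members were Gabra2, Grid1, Gabrq, Grm2, Grin2b, Gabrb2, Gabra4, Grik3, Grin3a, Gria3, Gabbr2, Grin2a and Gabra3, and the lower ones Gria2 and Grik2. Of the 15 members at or above the median gene, 8 were higher (53.3%) and 2 lower (13.3%), against 37% and 21.9% of all such genes. The median difference was 0.16 for the members against 0.07 for all genes. Centring on brighter genes gave 9 higher and 3 lower members, where 16.2% and 16.4% of all genes were called, and took the share of all calls that were higher from 62.3% to 49.7%.

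IgG alone also differed from input in these genes. It was higher for 9 members (22%): Gabra2, Grin2b, Gria2, Gabrq, Grik5, Gabbr1, Grin3a, Gabrb2 and Grik2. No member was called lower in limma's test, while 8.25% of all genes were called higher and 9.72% lower. At limma's unadjusted p under 0.05, 13 of 41 members were higher and 0 lower, against 3284 and 3351 of all 22180 genes. Of the 15 members at or above the median gene, 6 were called higher (40%) and 0 lower, against 13.8% and 17.8% of all such genes. The median difference was 0.08 for the members and 0.02 for all genes. Arrays of the compared groups did not overlap for 16 of 41 members in Pum2 over IgG (39.0%, against 41.3% of all genes), for 24 in Pum2 over input (58.5% against 45.3%) and for 12 in IgG over input (29.3% against 32.0%). Any pair of these comparisons shares 3 arrays, so a value in one is not independent of the others.

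**Figure D2:**
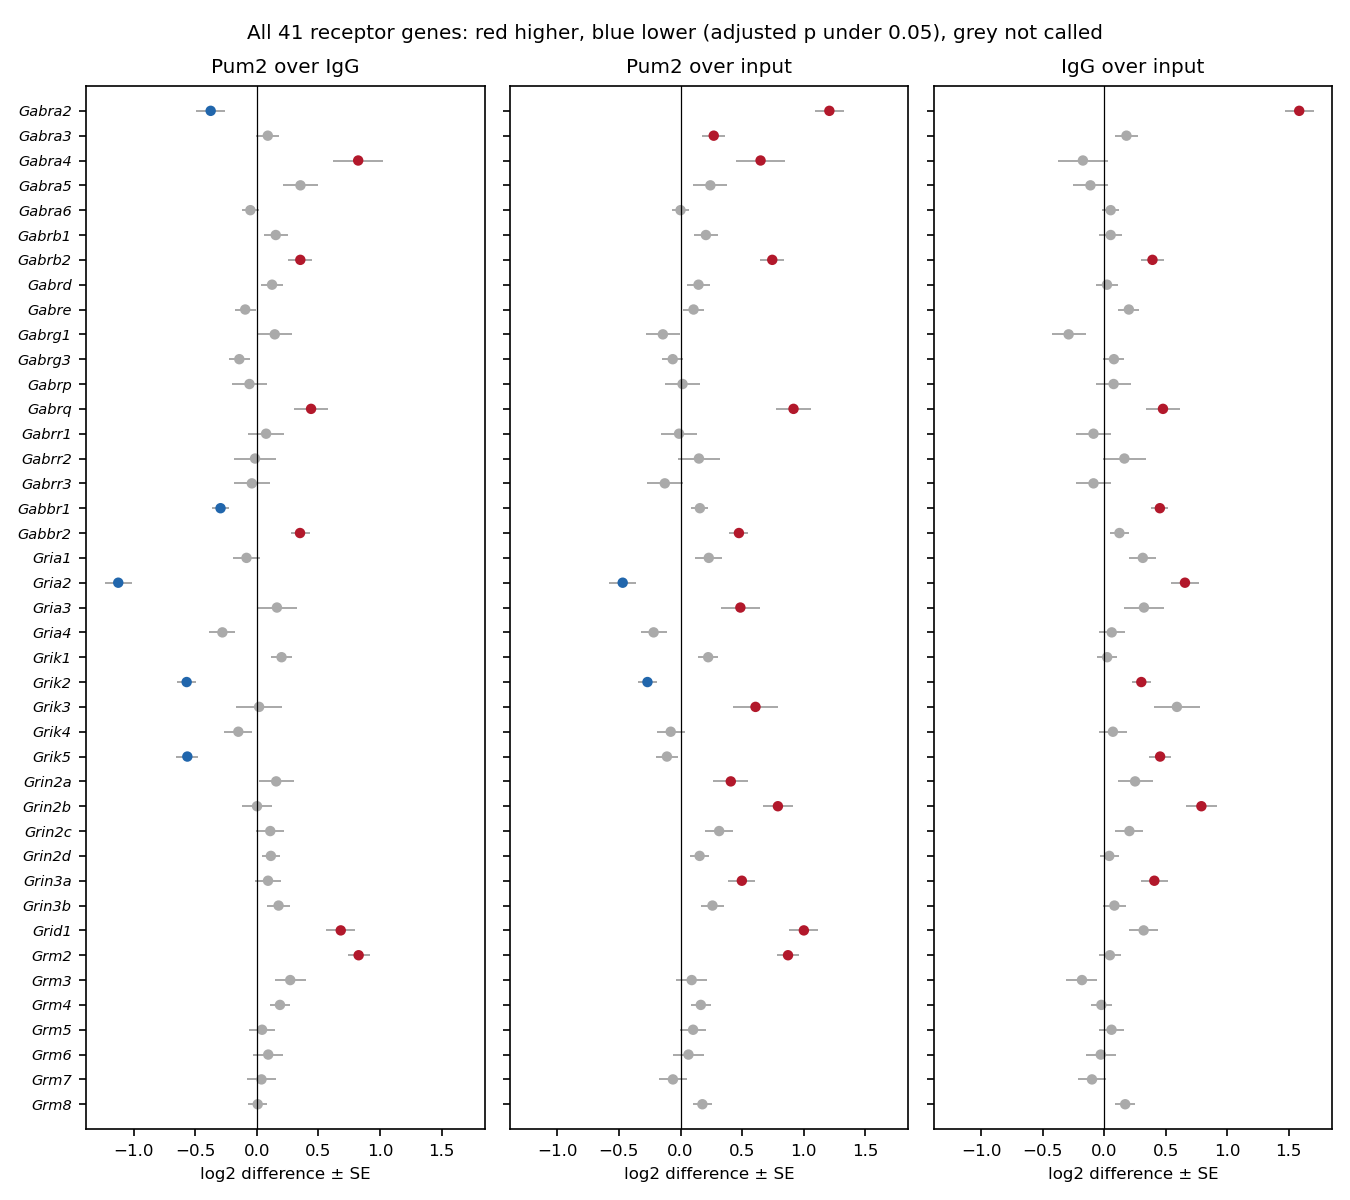
Log2 difference with its standard error for each of the 41 receptor genes for Pum2 against IgG, Pum2 against input and IgG against input, from 1 limma fit of 9 arrays. Gria2 is the lowest point against IgG (-1.13), Gabra2 the highest in IgG over input (1.58), and no member is called lower in IgG over input.

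**Figure D3:**
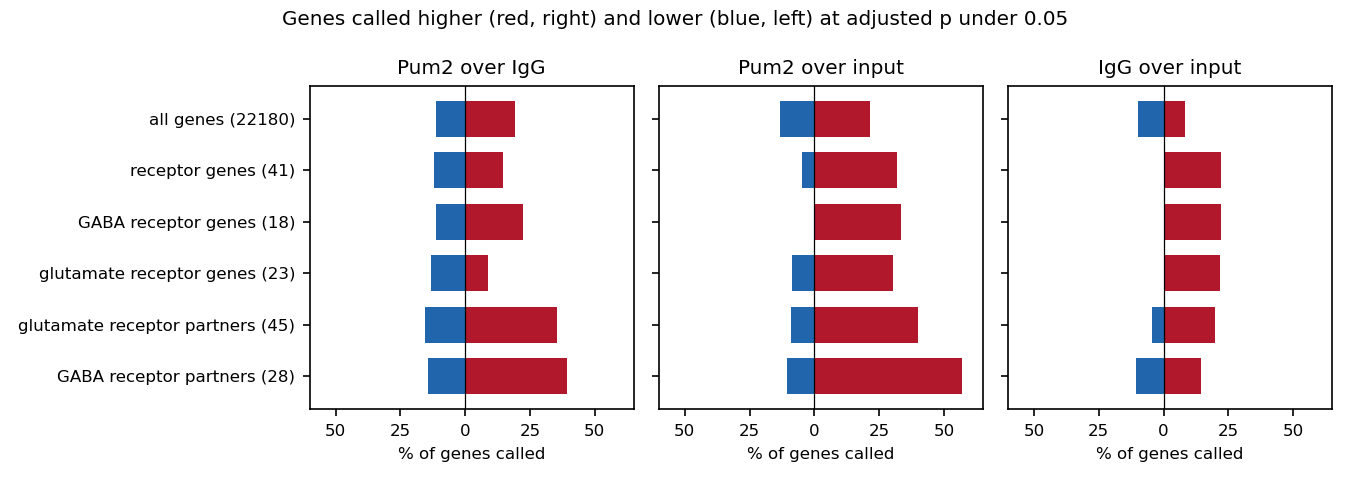
Percentage of genes called higher (red, to the right) and lower (blue, to the left) at an adjusted p under 0.05 in each comparison, for all genes, the receptor genes, their GABA and glutamate parts and the lists of partner genes; the number of genes measured is in brackets. For all receptor genes the bars are 14.6% and 12.2% against IgG, and 31.7% and 4.88% against input.

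Higher with Pum2 than in both controls were 6 members, Grm2, Grid1, Gabra4, Gabrb2, Gabrq and Gabbr2. This is 14.6% of members, and 14.2% of all genes met the same rule. Lower than in both were 2 members, Gria2 and Grik2, or 4.88% against 7.69% of all genes. Of the 41 members, 17 were called in at least 1 comparison and 24 in none. The like share of all genes was not counted, so these 2 numbers describe the members only.

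Among GABA-A alpha subunits, Gabra2 stood apart in both precipitates. This subunit is abundant in young forebrain neurons. Its log2 signal was 6.87, 7.11 and 6.65 in the input arrays, 8.37, 8.54 and 8.46 in IgG, and 8.02, 8.24 and 7.99 with Pum2. All 3 groups were separate, with IgG highest and input lowest. IgG exceeded input by 1.58 ± 0.12 (log2 difference ± SE, 3.00-fold, adjusted p = 8.64e-05), and only 0.0271% of all genes had a larger difference in that comparison. Pum2 exceeded input by 1.21 ± 0.12 (2.31-fold, adjusted p = 3e-05). Relative to IgG it was lower, by -0.38 ± 0.12 (adjusted p = 0.0368). That last call ended without input replicate 1, any of the 3 IgG replicates, or Pum2 replicate 1 or 3, with differences of -0.42 to -0.33.

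Gabra4 encodes an alpha subunit of receptors that often lie outside synapses and carry tonic currents. It read 6.30, 6.16 and 5.85 in input, 5.42, 6.30 and 6.07 in IgG, and 6.67, 6.90 and 6.70 with Pum2. The Pum2 arrays were above all others, while input and IgG overlapped, IgG replicate 1 being the lowest array. Pum2 was higher than IgG by 0.82 ± 0.20 (1.77-fold, adjusted p = 0.0105) and than input by 0.65 ± 0.20 (1.57-fold, adjusted p = 0.0289). The call against IgG held in every alternative tried, with a difference of 0.57 without IgG replicate 1. The call against input ended without input replicate 2 or 3 or without any 1 of the Pum2 replicates (0.52 to 0.69). IgG and input were not separated by the test (-0.17 ± 0.20, adjusted p = 0.624).

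Gabrb2, a beta subunit that forms the GABA site together with an alpha subunit, rose stepwise. It read 6.21, 6.37 and 6.08 in input, 6.56, 6.63 and 6.64 in IgG, and 6.89, 7.12 and 6.87 with Pum2, with no overlap between groups. Pum2 exceeded IgG by 0.35 ± 0.10 (adjusted p = 0.0189) and input by 0.75 ± 0.10 (1.68-fold, adjusted p = 1.78e-04). IgG exceeded input by 0.39 ± 0.10 (adjusted p = 0.0182). The difference from IgG was not called with centring on brighter genes (0.23), without IgG replicate 1 or without Pum2 replicate 2 (0.27 to 0.33). The difference of IgG from input was not called without input replicate 1 or 3 or IgG replicate 2 or 3 (0.32 to 0.39).

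Other GABA-A genes gave smaller or less certain values. Gabrq, the theta subunit, is dim by the guide above but rose over input by 0.92 ± 0.14 (adjusted p = 4.71e-04). Its Pum2 arrays read 5.61, 5.62 and 5.65, above 4.59, 4.72 and 4.81 in input. Its differences of Pum2 from IgG (0.44 ± 0.14, adjusted p = 0.035) and of IgG from input (0.48 ± 0.14, adjusted p = 0.0378) were each called. The first ended with centring on brighter genes (0.31) and without IgG replicate 2 or 3 or any 1 Pum2 replicate (0.27 to 0.46), and the other without any 1 array apart from IgG replicate 2 (0.33 to 0.53). Both ended with only the compared groups fitted. Gabra3, an alpha subunit typical of embryonic brain, was 0.27 ± 0.09 above input with Pum2 (adjusted p = 0.0491). That call ended without any 1 array other than input replicate 1 (0.21 to 0.30), with only the compared groups fitted, with quantile normalization run again and with centring on brighter genes (0.18). Not called in any comparison were Gabra5, Gabra6, Gabrb1, Gabrd, Gabre, Gabrg1, Gabrg3, Gabrp and the 3 rho genes, whose transcripts are best known from retina.

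Subunit genes of the GABA-A family lie in clusters in the genome, and in the gene order of RefSeq (GRCm38.p6) 12 members formed 6 pairs of direct neighbours. No difference between neighbours was tested, and the dim ones leave little room for a call. Gabra2 lies beside Gabrg1, which had group means of 3.78, 3.49 and 3.63 in input, IgG and Pum2 and was not called. Gabra4 lies beside Gabrb1 (4.17, 4.22 and 4.37), and Gabrb2 beside Gabra6 (3.32, 3.37 and 3.32), and neither of these companions was called. The pairs Gabra5 with Gabrg3 and Gabrr1 with Gabrr2 had no call. Only in the pair of Gabra3 and Gabrq were both genes called in the same comparison, Pum2 over input.

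The GABA-B receptor needs both of its subunits, Gabbr1, which binds GABA, and Gabbr2, which couples to the G protein, and their transcripts were called on opposite sides of IgG. Gabbr1 read 10.26, 10.25 and 10.20 in input, 10.72, 10.69 and 10.66 in IgG, and 10.38, 10.47 and 10.33 with Pum2. No groups overlapped, and Pum2 lay between input and IgG. IgG was above input by 0.45 ± 0.07 (1.37-fold, adjusted p = 0.00166), Pum2 was below IgG by -0.30 ± 0.07 (adjusted p = 0.00869), and Pum2 over input was 0.16 ± 0.07 (adjusted p = 0.113, not called). Gabbr2 had a lower signal, 5.67, 5.91 and 5.84 in input, 5.91, 5.95 and 5.93 in IgG, and 6.30, 6.27 and 6.26 with Pum2. Its Pum2 arrays exceeded all others, by 0.35 ± 0.08 over IgG (adjusted p = 0.00605) and 0.47 ± 0.08 over input (adjusted p = 7.7e-04). With centring on brighter genes the difference from IgG was 0.22 and not called. A difference between the changes of Gabbr1 and Gabbr2 was not itself tested.

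Of all members, Gria2 was the most depleted with Pum2. It encodes the AMPA receptor subunit whose edited form keeps calcium from passing through the channel. Its log2 signal was 8.37, 8.17 and 8.23 in input, 8.90, 8.80 and 9.03 in IgG, and 8.01, 7.74 and 7.61 with Pum2. The groups were separate, with Pum2 lowest and IgG highest. Pum2 was below IgG by -1.13 ± 0.11 (2.18-fold lower, adjusted p = 5.31e-05), a difference that only 1.29% of all genes exceeded in the same direction. It was below input by -0.47 ± 0.11 (1.38-fold lower, adjusted p = 0.00759), while IgG was above input by 0.66 ± 0.11 (1.58-fold, adjusted p = 0.00286). All 3 calls held in every alternative tried, except that the difference from input is under the stricter threshold of 1.5-fold. No other AMPA gene was called below IgG or input. Gria3 was 0.49 ± 0.16 above input with Pum2 (adjusted p = 0.0382), a call that ended without input replicate 1 or 2, IgG replicate 1 or Pum2 replicate 2 or 3 (0.38 to 0.50), with quantile normalization run again (0.44) and with centring on brighter genes (0.40). Gria1 (6.08 in input, 6.40 in IgG and 6.31 with Pum2) and Gria4 (6.95, 7.01 and 6.73) were not called. For Gria4 the difference from IgG was -0.28 (adjusted p = 0.073), and it was called with only genes at or above the median gene tested, with quantile normalization run again (-0.33) and with centring on brighter genes (-0.41). That centring also gave a call of Gria4 below input (-0.30).

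Kainate receptor genes included a pair that was low with Pum2 relative to IgG. Grik2, a pore-forming subunit, read 9.12, 9.06 and 9.02 in input, 9.35, 9.41 and 9.33 in IgG, and 8.87, 8.84 and 8.67 with Pum2. Again no groups overlapped, and the order was that of Gria2. Pum2 was below IgG by -0.57 ± 0.08 (1.48-fold lower, adjusted p = 3.37e-04) and below input by -0.27 ± 0.08 (1.20-fold lower, adjusted p = 0.0204). IgG was above input by 0.30 ± 0.08 (adjusted p = 0.0214). The call of Pum2 below input ended without input replicate 1 or Pum2 replicate 3 (-0.24 and -0.21). That of IgG above input ended without input replicate 2 or 3 or IgG replicate 2 (0.28 to 0.30). Grik5, the high-affinity subunit that reaches the surface only with a partner such as Grik2, read 8.75, 8.93 and 8.83 in input, 9.27, 9.34 and 9.26 in IgG, and 8.80, 8.82 and 8.56 with Pum2. IgG was above both other groups, which overlapped. Pum2 was below IgG by -0.56 ± 0.09 (1.48-fold lower, adjusted p = 8.2e-04), IgG above input by 0.45 ± 0.09 (1.37-fold, adjusted p = 0.00576), and Pum2 over input was -0.11 ± 0.09 (adjusted p = 0.391, not called).

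Grik3, another pore-forming kainate subunit, read 6.59, 5.79 and 6.36 in input, 7.05, 6.69 and 6.77 in IgG, and 7.04, 6.73 and 6.80 with Pum2. Both precipitates lay above input and overlapped each other, and input replicate 2 was the lowest array. Pum2 exceeded input by 0.61 ± 0.19 (1.53-fold, adjusted p = 0.027), a call that ended without input replicate 2 (0.38), Pum2 replicate 1 or Pum2 replicate 3, with only the compared groups fitted and with centring on brighter genes (0.52). IgG exceeded input by 0.59 ± 0.19 (adjusted p = 0.0528, not called). It was called with a replicate block, with only genes at or above the median gene tested and with a trended and robust variance. Centring on brighter genes (0.63) and leaving out input replicate 1 (0.76) also gave a call. Pum2 over IgG was 0.02 (adjusted p = 0.958). Grik1 (5.95, 5.98 and 6.18 in input, IgG and Pum2) and Grik4 (5.64, 5.71 and 5.56) were not called.

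**Figure D4:**
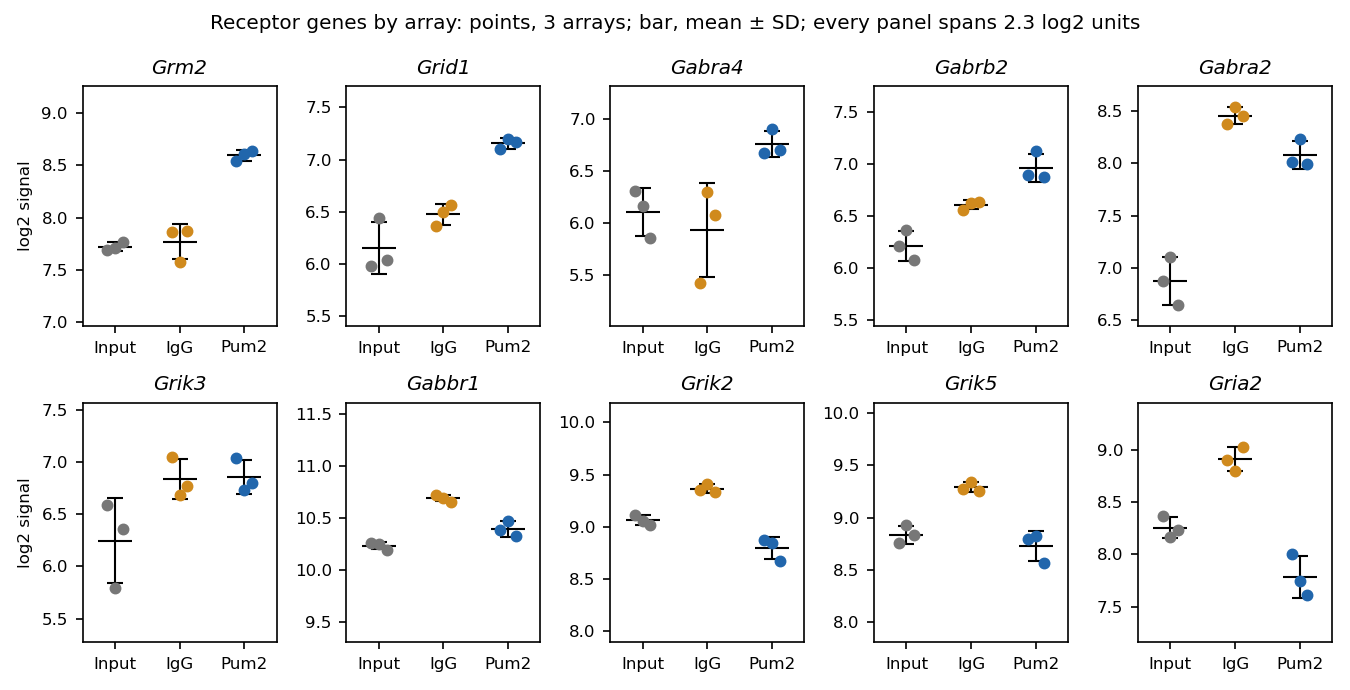
Log2 signal of 10 receptor genes on each of the 9 arrays (points), with the mean and SD of the 3 arrays of a group (bars); every panel spans the same number of log2 units. Grm2, Grid1, Gabra4 and Gabrb2 are highest with Pum2, while Gabra2, Gabbr1, Grik2, Grik5 and Gria2 are highest in IgG, and Gria2 and Grik2 are lowest with Pum2.

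Of the 6 NMDA genes, 3 were called above input with Pum2 (50%, against 21.6% of all genes) and 2 in IgG (33.3% against 8.25%). None was called in Pum2 over IgG (0 in limma's test and 0 at an unadjusted p under 0.05, with differences of 0.00 to 0.18). Of all 22180 genes, 5461 were higher and 3268 lower there at that unadjusted p. Grin2b, the main partner of the obligatory NMDA subunit before birth, read 5.64, 5.51 and 5.35 in input, 6.23, 6.11 and 6.53 in IgG, and 6.26, 6.17 and 6.44 with Pum2. The precipitates overlapped and both lay above input. Pum2 and IgG each exceeded input by 0.79 ± 0.12 (1.73-fold, adjusted p = 6.31e-04 and 0.00194). A dimmer feature of the same gene read 4.21, 4.14 and 4.16 in the 3 groups and was not called; with the mean of both features the differences were 0.37 and 0.36 and still called. Grin3a, a subunit that lowers calcium entry, was dim and exceeded input by 0.50 ± 0.11 with Pum2 (adjusted p = 0.00468) and 0.41 ± 0.11 in IgG (adjusted p = 0.0263). The call in IgG ended without input replicate 2 or 3 or IgG replicate 1 (0.32 to 0.41), with only the compared groups fitted and with quantile normalization run again (0.37). Grin2a, a subunit that becomes prominent after birth, was 0.41 ± 0.14 above input with Pum2 (adjusted p = 0.0488), a call that ended without any 1 array other than input replicate 3 (0.23 to 0.46), with only the compared groups fitted, with quantile normalization run again and with centring on brighter genes (0.32). Grin2c, Grin2d and Grin3b were not called.

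Grid1, a delta receptor subunit that binds cerebellins at synapses, read 5.98, 6.44 and 6.04 in input, 6.37, 6.49 and 6.56 in IgG, and 7.10, 7.20 and 7.17 with Pum2. Every Pum2 array lay above every control array, and input and IgG overlapped through input replicate 2. Pum2 exceeded IgG by 0.68 ± 0.12 (1.60-fold, adjusted p = 0.00149) and input by 1.00 ± 0.12 (2.00-fold, adjusted p = 9.2e-05). Among metabotropic receptors, Grm2, which dampens transmitter release, was the one member called. It read 7.69, 7.71 and 7.77 in input, 7.86, 7.58 and 7.87 in IgG, and 8.54, 8.61 and 8.64 with Pum2. Input and IgG overlapped (0.05 ± 0.09, adjusted p = 0.777), and all Pum2 arrays were higher. Pum2 exceeded IgG by 0.83 ± 0.09 (1.77-fold, adjusted p = 8.99e-05) and input by 0.87 ± 0.09 (1.83-fold, adjusted p = 3.89e-05). The calls of Grid1 and Grm2 against both controls held in every alternative tried. Its group II companion Grm3 (5.41, 5.23 and 5.50 in input, IgG and Pum2) and the other metabotropic genes, Grm4, Grm5, Grm6, Grm7 and Grm8, were not called in any comparison. Over the 24 members never called, differences ran from -0.29 to 0.35, and 21 of these genes were below the median gene.

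Partner genes of the receptors were read beside them from lists of scaffold, auxiliary, synthesis and transport genes. Of 45 glutamate receptor partners, 16 passed the test as higher and 7 as lower with Pum2 than in IgG (35.6% and 15.6%; median 0.15). Over all genes the shares were 19.4% and 11.4%, and over genes at or above the median gene, where 35 of these partners lay, 34.1% and 18%, and the partners were near the latter shares. Against input 18 rose and 4 fell (40.0% and 8.89%; median 0.17), where 21.6% and 13.1% of all genes and 37% and 21.9% of the brighter genes did. The lowest were Dlg4, a main scaffold of the postsynaptic density, and Cnih2, an auxiliary AMPA subunit. Dlg4 stood at -1.35 ± 0.07 against IgG (adjusted p = 1.54e-06) and -0.93 ± 0.07 against input (adjusted p = 5.03e-06). Cnih2 stood at -1.31 ± 0.07 (adjusted p = 2.85e-06) and -1.84 ± 0.07 (adjusted p = 1.69e-07). Homer2, an adaptor of group I metabotropic receptors, stood at -0.85 ± 0.11 (adjusted p = 3.09e-04) and -0.66 ± 0.11 (adjusted p = 0.00106). Frrs1l, which assists AMPA receptor assembly, was higher by 0.45 ± 0.10 than IgG (adjusted p = 0.00822) and by 0.97 ± 0.10 than input (adjusted p = 5.52e-05).

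Of 28 GABA receptor partners, 11 were higher and 4 lower relative to IgG (39.3% and 14.3%; median 0.21), and 16 higher and 3 lower relative to input (57.1% and 10.7%; median 0.34). The shares over all genes and over the brighter genes were those given for the glutamate partners, and 19 of the 28 were at or above the median gene. Kctd12, an auxiliary subunit of GABA-B receptors, was higher by 0.57 ± 0.12 than IgG (adjusted p = 0.00374) and by 1.35 ± 0.12 than input (adjusted p = 1.3e-05). Slc12a2, the importer that keeps chloride high in young neurons, was higher by 0.60 ± 0.17 (adjusted p = 0.0204) and 0.82 ± 0.17 (adjusted p = 0.0033). Hap1, which helps GABA-A receptors return to the surface, was higher by 0.65 ± 0.08 (adjusted p = 1.76e-04) and 0.62 ± 0.08 (adjusted p = 1.64e-04). Lhfpl4, which links GABA-A receptors to neuroligin, stood at -1.30 ± 0.15 against IgG (adjusted p = 1.15e-04) and -0.35 ± 0.15 against input (adjusted p = 0.0933, not called), and was 0.95 ± 0.15 higher in IgG than in input (adjusted p = 0.00181). None of the 5 glycine receptor genes was called in any comparison. At limma's unadjusted p under 0.05, 2 were lower in IgG over input and 0 otherwise. Of all 22180 genes, 3351 were lower in IgG over input at that unadjusted p.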

How the data were processed

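The authors deposited log2 values made with RMA in Affymetrix Expression Console, per the submitters' processing notes, without versions. RMA corrects background, normalizes arrays and summarises probes, so values are relative within the array set. Per the labels' protocols, RNA was amplified before labelling, which can compress differences. Of 41345 features, 23521 carried 1 gene symbol (platform annotation, 1814 several, 16010 unnamed here). A gene with several features was represented by that of highest 9-array mean, giving 22180 genes; 5 of the 41 members had several features. RefSeq held all 41 symbols. Tests used limma 3.58.1 (R 4.3.3), with all 9 arrays in 1 fit of 3 groups, no replicate block and 6 residual degrees of freedom. P-values were adjusted by Benjamini-Hochberg over all genes and called under 0.05. An exact permutation test of 3 against 3 arrays cannot go below 0.1. Replicates are biological per the labels, and p-values reflect their spread. Alternatives were a replicate block, a fit of the compared groups alone, tests restricted to genes no dimmer than the median gene, a trended and robust variance, quantile normalization run again, centring on brighter genes, the mean of a gene's features, a 1.5-fold threshold and leaving out each array. The procedure was run on simulated data with independent noise and far fewer changed genes than were called here. That run checks the code only and does not bear on these calls or on pairing. Members and lists were chosen with earlier results of these data known. Values per array are given for up to 6 called, non-overlapping members per direction and comparison at or above the median gene (Gabrq, Gabbr2 and Grin2b were added after their values were seen), and up to 4 partner genes per list. No sequence is shown, since none of those used here bears on the precipitated RNA.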

Additional observations from a re-analysis of the deposited data

How the results depend on the processing

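No called difference of a receptor gene changed sign in any alternative. Of 35 called differences, 21 were called in every setting that tested them, the fold threshold aside, and 14 were lost in at least 1; 5 of the 21 lie below the median gene and were not tested where only brighter genes were. Calls were also gained, for 12 differences of 11 genes. Of these, 8 were gained in 1 setting each, among them Gabra5 over IgG without IgG replicate 1 (0.49) and Gria3 in IgG over input with the replicate block. Grik3 in IgG over input was gained in 5 settings, the block included (adjusted p = 0.00984 in limma), Gria1 there in 3, Grid1 there in 2, and Gria4 below IgG in 3. The replicate block changed the counts little: 6 higher and 5 lower against IgG, and 12 and 2 against input. In IgG over input it gave 11 higher, where the fit without it gave 9. Over all genes the block gave 19.6% higher and 11.4% lower against IgG, 21.9% and 13.1% against input, and 8.37% and 9.78% in IgG over input. It ended 1 of the 35 calls, Gabra3 over input. Deviations of same-numbered arrays from their group means correlated with r of 0.0015 to 0.135, and those of differently numbered arrays with r of -0.130 to 0.041. In both other groups, 7 of 9 arrays correlated best with their own number, a hint of pairing from the data only. The labels say only that replicates are biological, so the numbers were not taken to pair arrays. Requiring a change of at least 1.5-fold left 3 higher and 1 lower against IgG, 8 higher and 0 lower against input, 3 higher in IgG over input, and 3 higher and 0 lower than both controls. Centring on brighter genes left 3 higher than IgG and 3 higher than both controls. Testing only genes at or above the median gene left 8 higher than input, since the other members were not tested. Leaving out 1 array gave 4 to 6 higher and 4 to 5 lower against IgG, 8 to 12 higher (8 without input replicate 2) and 1 to 2 lower against input, 5 to 9 higher and 0 lower in IgG over input (5 without input replicate 3). Against both controls it gave 3 to 6 higher (3 without Pum2 replicate 2) and 1 to 2 lower (1 without input replicate 1 or Pum2 replicate 3). Shares of all genes were not counted for the fold threshold, for testing only brighter genes or for leaving out 1 array. Nor were they counted, under any alternative, for the rule of both controls. Those counts describe the members only. Signal over background limits the 15 dim members.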
